A study of Mus musculus with 5 samples.

Results

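The genes described here repair broken or crosslinked DNA by homologous recombination and the Fanconi pathway, or signal the damage through checkpoint kinases. They are 33 genes fixed as a list of symbols, and all 33 were found among the 27526 rows of the authors' normalized counts table, 1 row each. RNA was profiled from Kit+ leukaemia stem cells of the AML1-ETO9a mouse model, in which a shortened fusion of RUNX1 and RUNX1T1 drives acute myeloid leukaemia. The libraries labelled deleted (Plcg1 -/-, by conditional deletion; replicates 2, 4 and 6) were set against the libraries labelled wild-type (Plcg1 +/+; replicates 1 and 3). Plcg1 encodes phospholipase C-γ1, which makes the second messengers diacylglycerol and inositol trisphosphate. Both groups carry the AML1-ETO9a leukaemia and were selected for Kit. What deletes Plcg1, the age of the mice and whether the libraries came from separate mice were not given in the sources used here, so the spread behind the p-values is that between 5 samples and may be technical.

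Homologous recombination repairs a double-strand break by copying the sister chromatid, and so works mainly in cells that have replicated their DNA. The broken ends are recognised and trimmed, BRCA1 and BRCA2 complexes prepare the single strand for pairing with the sister, and helicases then resolve the joined molecules. The Fanconi core complex attaches ubiquitin to FANCD2 and FANCI at crosslinked DNA, and the kinases ATM and ATR with CHK2 and CHK1 halt the cell cycle meanwhile. Many of these genes are transcribed in late G1 and S phase under E2F factors, and haematopoietic stem cells depend on the Fanconi pathway.

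The libraries held 52560713 to 57133771 gene counts under the deleted label and 37306507 and 51682298 under the wild-type label. Levels are given as CPM, a gene's counts relative to the size of its library, with sizes scaled by TMM, a method that sets most genes level between libraries. Plcg1 itself was at 53.0, 26.9 and 37.1 CPM in deleted 2, 4 and 6, against 22.1 CPM in wild-type 1 and 34.0 CPM in wild-type 3. Its groups overlapped, with a log2 fold change of 0.48 ± 0.37 (SE, edgeR adjusted p = 0.543). Gene totals include exons outside a deleted part, so they do not check the deletion, and all directions refer to the labels. Deleted 6 stood apart. Kit, the receptor for which the cells were selected, had 672, 304 and 3.08 CPM in deleted 2, 4 and 6, against 26.8 and 32.1 CPM in wild-type. The summed CPM of 12 macrophage markers was 22910, 41510 and 139200 in deleted 2, 4 and 6, against 18780 and 18730 in wild-type. The summed CPM of 8 neutrophil granule markers was 9196, 7991 and 29.9, against 12710 and 14560. That of 10 mast cell markers was 11270, 5106 and 37.1, against 89.2 and 139. No defining marker of these lists was at 0. edgeR called none of them across all 5 libraries. Without deleted 6 it called 10 of 10 mast cell and 3 of 12 macrophage markers higher, where 7.89% of all genes tested were. It called 4 of 8 neutrophil granule markers lower, where 5.07% of all genes were. In that fit 4 of the 12 macrophage markers had a negative log2 fold change, and 3 of the 8 neutrophil granule markers a positive one. Per the file names the libraries also came from 3 sequencing lanes, with wild-type 1 in lane 3, deleted 6 in lane 5 and the others in lane 4.

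Most of these genes were lower in every library labelled deleted than in either library labelled wild-type, but none passed the test across all 5 libraries. In 27 of 33 genes (81.8%) all 3 deleted libraries lay below both wild-type libraries, where 23.7% of the 16120 genes tested did, and in 0 of 33 they lay above, where 22.4% of genes did. The remaining 6 genes, Atr, Chek2, Rad50, Nbn, Rbbp8 and Fancc, overlapped between the groups. All 33 passed the filter on low counts. The log2 fold change is that of deleted over wild-type, and its median was -0.89 for these genes and 0.01 for all genes tested, and 31 of 33 were negative, where 49.4% of all genes were. At an adjusted p under 0.05 none of the 33 genes was called by the quasi-likelihood test of edgeR (0 of 33), as 0.0% of all genes were in either direction. At an unadjusted p under 0.05 in edgeR 1 gene was lower (Fancg) and 0 were higher, where 5.42% and 9.44% of all genes were. DESeq2 called 0 of 33, where it called 2.14% of all genes lower and 4.53% higher. With quality weights limma-voom called 5.87% of all genes lower and 7.63% higher, and 1 of the 33, again Fancg (log2 fold change -0.61 ± 0.14 SE, adjusted p = 0.0437).

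Without deleted 6 the median difference was smaller, and 3 genes had an adjusted p under 0.05 in edgeR, a threshold at which simulated counts gave too many false calls in both fits. Of the 33 genes, edgeR called 3 lower, Fanci, Brca2 and Tipin, where 5.07% of the 15787 genes tested were called lower, and 0 higher, where 7.89% were. At an unadjusted p under 0.05 in edgeR 18 of 33 were lower, where 12.6% of all genes were, and 0 were higher, where 16.0% were. In 27 of 33 genes deleted 2 and 4 lay below both wild-type libraries, where 29.8% of all genes did, and in 2, Chek2 and Nbn, above, where 28.7% did. The median log2 fold change was -0.49, against -0.01 for all genes tested. DESeq2 called 11 of the 33 lower here, where it called 6.53% of all genes lower and 9.86% higher. With no filter on low counts edgeR called 13 (5.07% and 7.02% of all genes), and with a stricter filter 7 (5.97% and 8.49%). None of the 3 calls held when wild-type 1 or wild-type 3 was also left out (0 of 33 called each time), which leaves a lone wild-type library assumed to vary like the deleted ones. Without deleted 4 Fanci kept its call and Rad54l gained one, where 5.7% of all genes were called lower and 9.16% higher. Without deleted 2 Brca2 alone of the 3 lost its call and 10 of 33 were called, where 6.43% of all genes were called lower and 9.39% higher. The fit without wild-type 1 and deleted 6 is also the one within lane 4, where 0.779% of all genes were called lower and 1.26% higher. There 29 of 33 genes had deleted 2 and 4 below wild-type 3, where 40.4% of all genes did, and the median log2 fold change was -0.52.

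**Figure D1:**
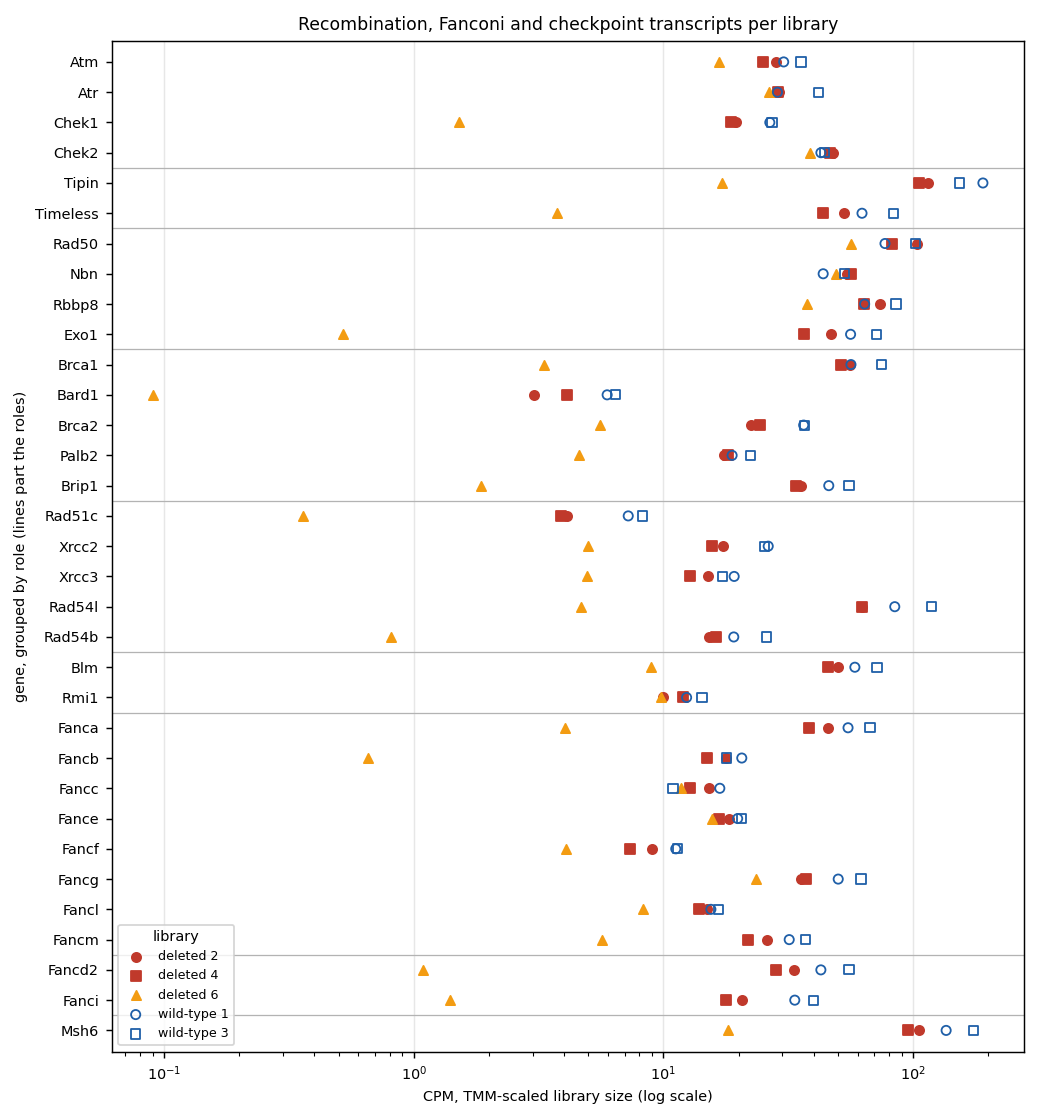
Level of each of the 33 genes in each library, in CPM on a log axis, with filled marks for libraries labelled deleted and open marks for libraries labelled wild-type; grey lines part the roles. Deleted 6 (triangles) lies far to the left for genes such as Exo1 (0.520 CPM) and Bard1 (0.0905 CPM) and beside the other libraries for Atr, Nbn and Fance.

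Among the kinases that sense and relay damage, Chek1 was far lower in deleted 6 than in any other library, and Chek2, Atm and Atr were less so. Chek2, the kinase that ATM activates at double-strand breaks (chromosome 5, 110839979 to 110874145, plus strand), was at 47.7, 46.7 and 38.6 CPM in deleted 2, 4 and 6, against 42.8 CPM in wild-type 1 and 44.3 CPM in wild-type 3. Its groups overlapped, with deleted 2 and 4 highest and deleted 6 lowest. The log2 fold change (± SE) was 0.03 ± 0.18 with all libraries (edgeR adjusted p = 0.942) and 0.13 ± 0.13 with deleted 6 left out (adjusted p = 0.593). Its counterpart at stalled forks, Chek1, had 19.5, 18.6 and 1.51 CPM in deleted 2, 4 and 6, against 26.7 and 27.2 CPM in wild-type. The upstream kinases varied less across libraries. Atm, which responds to double-strand breaks, ranged from 16.7 to 28.2 CPM in deleted and stood at 30.3 and 35.6 CPM in wild-type libraries. Atr, which responds to single-stranded DNA at forks, ranged from 26.6 to 29.0 CPM in deleted and stood at 28.6 and 41.8 CPM in wild-type libraries.

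The partners of the fork protection complex, which holds the replication machinery together when it stalls, were both lower in all deleted libraries. Tipin (ENSMUSG00000032397.6; chromosome 9, 64281581 to 64305424, plus strand) was at 115, 106 and 17.2 CPM in deleted 2, 4 and 6, against 190.5 CPM in wild-type 1 and 153 CPM in wild-type 3. Both wild-type values exceeded all 3 others. Tipin had a log2 fold change of -1.12 ± 0.77 (± SE) with all libraries, at an edgeR adjusted p of 0.503. With deleted 6 left out it fell by 0.63 ± 0.15 on the log2 scale (adjusted p = 0.0442). Timeless, its binding partner (chromosome 10, 128232065 to 128252941, plus strand), was at 53.0, 43.6 and 3.75 CPM in deleted 2, 4 and 6, against 62.5 CPM in wild-type 1 and 83.5 CPM in wild-type 3. These groups did not overlap either, and the log2 fold change was -1.12 ± 0.99 with all libraries and -0.58 ± 0.19 with deleted 6 left out (edgeR adjusted p = 0.583 and 0.0961).

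Of the genes that recognise and trim broken ends, Exo1 alone had groups that did not overlap. Exo1, the exonuclease of long-range resection (chromosome 1, 175880581 to 175913489, plus strand), was at 46.8, 36.5 and 0.520 CPM in deleted 2, 4 and 6, against 56.2 CPM in wild-type 1 and 71.5 CPM in wild-type 3. Deleted 6 held 23 Exo1 counts, an exact 95% Poisson interval of 0.330 to 0.780 CPM for counting error only. The log2 fold change (± SE) was -1.19 ± 1.43 with all libraries (edgeR adjusted p = 0.675) and -0.60 ± 0.19 with deleted 6 left out (adjusted p = 0.0882). Rad50, the coiled ATPase of the MRE11 complex (chromosome 11, 53649519 to 53707319, minus strand), was at 104, 82.2 and 56.6 CPM in deleted 2, 4 and 6, against 77.2 CPM in wild-type 1 and 102 CPM in wild-type 3. Its groups overlapped, with a log2 fold change of -0.15 ± 0.31 (edgeR adjusted p = 0.807). Nbn, the subunit that recruits ATM, ranged from 49.0 to 56.5 CPM in deleted and stood at 43.7 and 53.1 CPM in wild-type libraries. Rbbp8, which encodes CtIP and starts resection, ranged from 37.7 to 73.7 CPM in deleted and stood at 64.0 and 85.5 CPM in wild-type libraries.

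All 5 genes of the BRCA complexes had lower values in each deleted library than in either wild-type one. Of all genes tested, 23.7% had this. Brca2, which acts on single-stranded DNA after resection (ENSMUSG00000041147.9; chromosome 5, 150522630 to 150570329, plus strand), was at 22.4, 24.4 and 5.56 CPM in deleted 2, 4 and 6, against 36.5 CPM in wild-type 1 and 36.8 CPM in wild-type 3. Its log2 fold change was -1.07 ± 0.62 (± SE) with all libraries, at an edgeR adjusted p of 0.453. With deleted 6 left out it fell by 0.64 ± 0.15 on the log2 scale (adjusted p = 0.0394). Brca1, the ubiquitin ligase subunit that favours resection (chromosome 11, 101488764 to 101551955, minus strand), was at 55.7, 51.5 and 3.32 CPM in deleted 2, 4 and 6, against 56.4 CPM in wild-type 1 and 74.5 CPM in wild-type 3. Deleted 2 lay just under wild-type 1, and the log2 fold change was -0.83 ± 1.05 with all libraries and -0.28 ± 0.17 with deleted 6 left out (± SE, edgeR adjusted p = 0.692 and 0.355). Bard1, the obligate partner of BRCA1 (chromosome 1, 71027498 to 71103146, minus strand), was at 3.03, 4.10 and 0.0905 CPM in deleted 2, 4 and 6, against 5.95 CPM in wild-type 1 and 6.43 CPM in wild-type 3. Only 4 counts stand behind the value of Bard1 in deleted 6, an exact 95% Poisson interval of 0.0247 to 0.232 CPM. For Bard1 the log2 fold change was -1.36 ± 1.25 with all libraries and -0.79 ± 0.28 with deleted 6 left out (± SE, edgeR adjusted p = 0.596 and 0.122). Brip1, the helicase that binds BRCA1, and Palb2, which joins BRCA1 to BRCA2, ranged from 1.85 to 35.5 CPM and from 4.61 to 18.1 CPM in deleted libraries. In wild-type libraries Brip1 was at 46.0 and 55.4 CPM and Palb2 at 18.9 and 22.3 CPM.

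Rad51c, Xrcc2 and Xrcc3, which assist strand pairing, and the RAD54 motors, which drive strand exchange, also had no overlap between groups in any of 5 genes. Their deleted libraries all lay below wild-type, as in 23.7% of all genes tested. Rad51c (chromosome 11, 87376645 to 87404954, minus strand) was at 4.12, 3.89 and 0.362 CPM in deleted 2, 4 and 6, against 7.23 CPM in wild-type 1 and 8.23 CPM in wild-type 3. With -1.47 ± 0.95 (SE, edgeR adjusted p = 0.485) its log2 fold change was among the largest of the 33 genes, and it was -0.94 ± 0.24 without deleted 6 (adjusted p = 0.0537). Rad54l (chromosome 4, 116094264 to 116123690, minus strand) was at 62.6, 62.5 and 4.68 CPM in deleted 2, 4 and 6, against 84.5 CPM in wild-type 1 and 119 CPM in wild-type 3. Rad54l had a log2 fold change of -1.23 ± 1.00 with all libraries and -0.69 ± 0.18 with deleted 6 left out (edgeR adjusted p = 0.558 and 0.0570). Xrcc2 and Xrcc3 ranged from 4.97 to 17.3 CPM and from 4.93 to 15.1 CPM in deleted libraries. In wild-type 1 and 3 they stood at 26.3 and 25.4 CPM, and at 19.2 and 17.3 CPM. Rad54b, a second motor of this family, ranged from 0.814 to 16.3 CPM in deleted libraries and stood at 19.1 and 25.9 CPM in wild-type. Its counts are uncertain, because 35.8% of its exon bases are shared with Fsbp on the same strand, as are 15.4% of those of Rad54l with Lrrc41 on the other strand.

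Blm, the Bloom syndrome helicase that takes apart joined DNA molecules (chromosome 7, 80454733 to 80535119, minus strand), was at 50.3, 45.8 and 8.91 CPM in deleted 2, 4 and 6, against 58.5 CPM in wild-type 1 and 71.7 CPM in wild-type 3. All deleted libraries lay below both wild-type libraries, with a log2 fold change of -0.89 ± 0.71 with all libraries and -0.43 ± 0.16 with deleted 6 left out (± SE, edgeR adjusted p = 0.552 and 0.130). Rmi1, a scaffold of the same complex, did not share the low value of deleted 6. Its levels were 9.97, 12.04 and 9.79 CPM in deleted 2, 4 and 6, against 12.4 CPM in wild-type 1 and 14.3 CPM in wild-type 3. Part of the Rmi1 counts is uncertain, because 5.02% of its exon bases overlap Hnrnpk on the other strand.

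In the Fanconi core complex 7 of 8 genes had no overlap between groups, and Fancc was the exception. In all 7 the deleted values were the lower ones, a pattern that 23.7% of all genes tested had. Fanca, the subunit most often mutated in Fanconi anaemia (chromosome 8, 123268300 to 123318576, minus strand), was at 45.6, 38.3 and 4.03 CPM in deleted 2, 4 and 6, against 54.9 CPM in wild-type 1 and 67.3 CPM in wild-type 3. Its log2 fold change (± SE) was -1.06 ± 0.92 with all libraries (edgeR adjusted p = 0.581) and -0.53 ± 0.17 with deleted 6 left out (adjusted p = 0.0912). Fancg, the member with the smallest p across all 5 libraries, was at 35.4, 37.3 and 23.5 CPM in deleted 2, 4 and 6, against 50.2 CPM in wild-type 1 and 61.9 CPM in wild-type 3. The log2 fold change of Fancg was -0.80 ± 0.27 with all libraries and -0.61 ± 0.16 with deleted 6 left out (± SE, edgeR adjusted p = 0.289 and 0.0519). Low values in deleted 6 were found for Fancb, an X-linked core subunit, at 0.656 CPM, and for Fancm, the DNA translocase that anchors the complex, at 5.70 CPM. In deleted 2 and 4 Fancb was at 17.9 and 15.0 CPM, against 20.6 CPM in wild-type 1 and 17.9 CPM in wild-type 3, and Fancm was at 25.96 and 21.8 CPM, against 31.9 and 37.2 CPM. Fancl, the ubiquitin ligase subunit, and Fancf, an adaptor, ranged from 8.28 to 15.0 CPM and from 4.07 to 9.04 CPM in deleted libraries. In wild-type 1 and 3 Fancl was at 15.5 and 16.6 CPM, and Fancf at 11.2 and 11.4 CPM. Fance, which bridges the core to FANCD2, stayed within 15.7 to 18.2 CPM in deleted libraries, against 19.8 and 20.5 CPM in wild-type. The exons of Fancc, Fancf, Fancl and Fanca also overlap genes on the other strand, Fancf over 15.0%, Fancl over 13.7% and Fanca over 10.5% of their bases, and Fancc over 16.4% with one gene and 2.21% with another, so their counts are uncertain. Fancc, the partner of Fance, was at 15.2, 12.8 and 11.7 CPM in deleted 2, 4 and 6, against 16.8 CPM in wild-type 1 and 10.9 CPM in wild-type 3.

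Fancd2 and Fanci, the pair that the core complex marks with ubiquitin and that clamps onto crosslinked DNA, were both much lower in deleted 6 and lower in deleted 2 and 4. Fanci (ENSMUSG00000039187.15; chromosome 7, 79391929 to 79450264, plus strand) was at 20.6, 17.8 and 1.40 CPM in deleted 2, 4 and 6, against 33.6 CPM in wild-type 1 and 39.9 CPM in wild-type 3. Means were 13.3 ± 10.4 CPM in deleted (SD, n = 3) and 36.7 ± 4.43 CPM in wild-type libraries (SD, n = 2), and the groups did not overlap. The log2 fold change of -1.47 ± 1.00 across all 5 libraries (SE, edgeR adjusted p = 0.5001) was the largest in size of the 33 genes. Without deleted 6 Fanci fell by 0.93 ± 0.17 on the log2 scale, with the smallest adjusted p of the 33 genes (0.0195). Part of the Fanci counts is uncertain, because 15.95% of its exon bases overlap Polg on the other strand and the kit does not mark strand. Fancd2 (chromosome 6, 113531682 to 113597017, plus strand) was at 33.5, 28.4 and 1.08 CPM in deleted 2, 4 and 6, against 42.7 CPM in wild-type 1 and 55.4 CPM in wild-type 3. Fancd2 had a log2 fold change of -1.22 ± 1.19 with all libraries and -0.65 ± 0.18 with deleted 6 left out (edgeR adjusted p = 0.616 and 0.0655).

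Msh6, which finds mismatched bases after replication (chromosome 17, 87975062 to 87990892, plus strand), was at 106, 95.1 and 18.2 CPM in deleted 2, 4 and 6, against 136 CPM in wild-type 1 and 174 CPM in wild-type 3. Its groups did not overlap, and its log2 fold change (± SE) was -1.09 ± 0.72 with all libraries (edgeR adjusted p = 0.493) and -0.62 ± 0.16 with deleted 6 left out (adjusted p = 0.0557). In 3 of the 6 other mismatch repair genes listed (50.0%) all deleted libraries lay below both wild-type libraries, where 23.7% of all genes tested did. Of these 6 genes, edgeR called 0 with all 5 libraries and 0 without deleted 6. At an unadjusted p under 0.05, 1 and 2 were lower, where 5.42% and 12.6% of all genes tested were. Pms1, which takes part in mismatch repair, had the smallest p, with a log2 fold change of -0.80 ± 0.28 across all 5 libraries (SE, edgeR adjusted p = 0.311). Mlh3, active mainly in meiosis, had 0.09 ± 0.26.

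**Figure D2:**
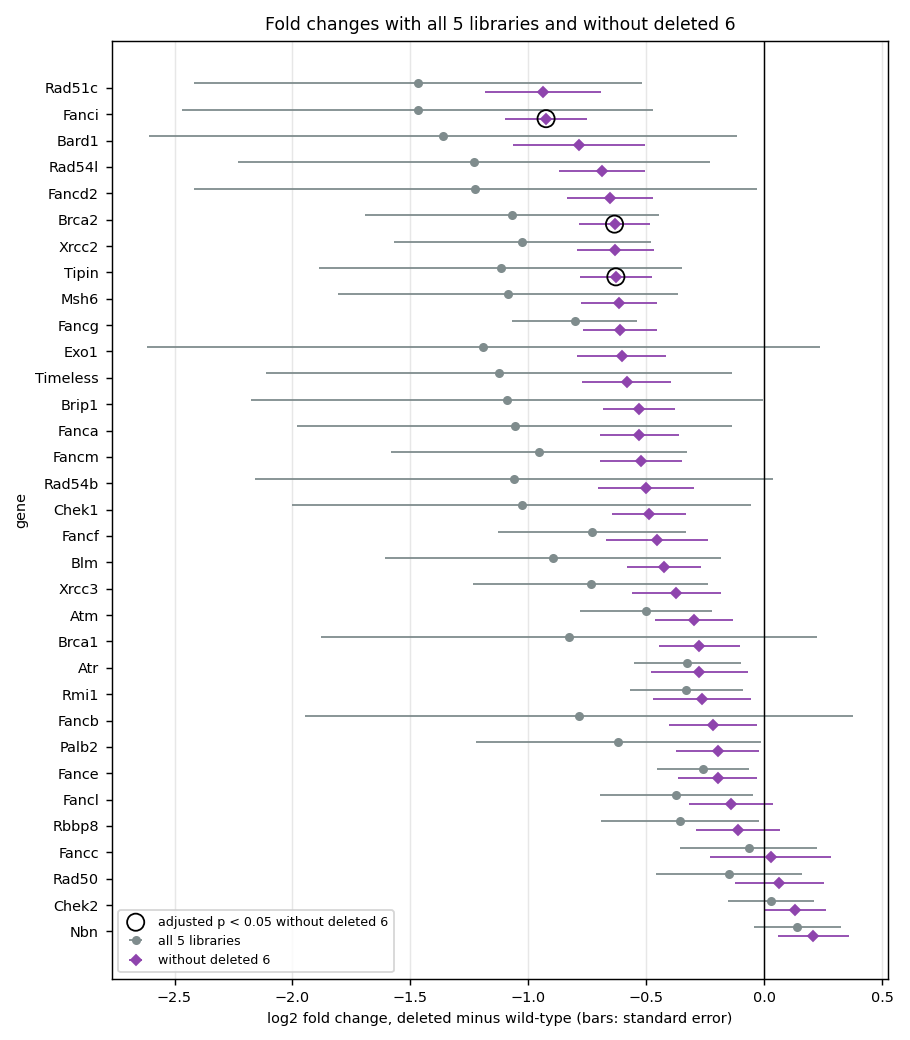
Log2 fold change of each of the 33 genes, deleted minus wild-type, with its standard error, across all 5 libraries (circles) and without deleted 6 (diamonds); rings mark Fanci, Brca2 and Tipin, called without deleted 6. The median is -0.89 across all 5 libraries and -0.49 without deleted 6, and the errors are wider with deleted 6 in the fit.

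In deleted 6 some of these genes were nearly undetected and others close to deleted 2 and 4, and members of one role fell on both sides. As a share of the mean CPM of deleted 2 and 4, its level ranged from 1.25% for Exo1 to 92.0% for Atr, with a median of 23.8%, against 97.8% for all genes tested. It lay under 10% for 13 of 33 genes, where 7.49% of all genes did, and over 50% for 11 of 33, where 78.8% of all genes did. Those under 10% were Exo1, Bard1, Fancd2, Fancb, Rad54b, Brip1, Brca1, Fanci, Rad54l, Timeless, Chek1, Rad51c and Fanca. Those over 50% were Rbbp8, Fancl, Rad50, Atm, Fancg, Chek2, Fancc, Nbn, Rmi1, Fance and Atr. Both FANCD2-FANCI genes were in the first set, while 3 of 4 kinases and 3 of 4 end recognition genes were in the second. Within the BRCA complexes the share ran from 2.54% for Bard1 to 25.95% for Palb2. Within the Fanconi core it ran from 3.99% for Fancb to 89.8% for Fance. In 31 of 33 genes deleted 6 was the lowest of the 5 libraries, where 37.9% of all genes had this, and Nbn and Fancc were the exceptions. These shares compare 1 library with 2 of the same label and have no replicate check. In RNA from many cells, fewer cells that express a gene and less RNA per cell cannot be told apart.

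Genes of cell division were lower in the deleted libraries too, and lowest in deleted 6. The mean log2 level of 22 proliferation genes differed from the wild-type mean by -0.54, -0.63 and -3.94 in deleted 2, 4 and 6, while that of the 33 repair and checkpoint genes differed by -0.36, -0.46 and -2.50. Mki67, the marker of cycling cells, was at 170.5, 165 and 7.76 CPM in deleted 2, 4 and 6, against 229 CPM in wild-type 1 and 271.5 CPM in wild-type 3. Without deleted 6 edgeR called 8 of the 22 lower and 0 higher (median log2 fold change -0.56), where 5.07% and 7.89% of all genes tested were. Across all 5 libraries it called 0 and had 3 lower at an unadjusted p under 0.05 (median -1.08), where 5.42% of all genes were. E2f2 and E2f1, activators of S-phase genes, had the smallest p there, with log2 fold changes of -1.80 ± 0.33 and -0.48 ± 0.16 (SE, adjusted p = 0.157 and 0.286). Without deleted 6 E2f2 fell by 1.57 ± 0.20 on the log2 scale (adjusted p = 0.00475). In all 22 proliferation genes the groups did not overlap across all 5 libraries, and the deleted values were the lower ones. Of all genes tested, 23.7% had this pattern. The part of proliferation, of the macrophage, mast cell and neutrophil markers given above and of the lane in the values of the 33 genes was not tested.

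Other genes of the same pathways had smaller median differences. In 13 of 26 further recombination and Fanconi genes (50.0%) all deleted libraries lay below both wild-type libraries, and in 1 above. Of all genes tested, 23.7% and 22.4% did. Of these 26 genes, edgeR called 0 across all 5 libraries, with a median log2 fold change of -0.40. At an unadjusted p under 0.05 it had 1 lower, where 5.42% of all genes tested were. Without deleted 6 it called 2 lower and 0 higher (median -0.17), where 5.07% and 7.89% of all genes were. The 2 called were Dna2, a nuclease of long-range resection, and Hells, a chromatin remodeller. Dna2 fell by 0.86 ± 0.15 on the log2 scale (SE, edgeR adjusted p = 0.0147) and Hells by 0.54 ± 0.12 (adjusted p = 0.0376). Mre11a, the nuclease of the complex with RAD50 and NBN, had the smallest p across all 5 libraries, at -0.54 ± 0.20 (edgeR adjusted p = 0.316). Ercc1 and Ercc4, which form an endonuclease that unhooks crosslinks, had 0.73 ± 0.41 and 0.25 ± 0.20 (adjusted p = 0.440 and 0.556). In 10 of 19 further checkpoint and damage response genes (52.6%) all deleted libraries lay below both wild-type libraries, and in 1 above. Of all genes tested, 23.7% and 22.4% did. Of these 19 genes, edgeR called 0 across all 5 libraries (median -0.36). At an unadjusted p under 0.05 it had 2 lower, where 5.42% of all genes were. Without deleted 6 it called 2 lower and 0 higher (median -0.18), where 5.07% and 7.89% of all genes were. H2afx, the histone variant phosphorylated around breaks, fell by 1.15 ± 0.22 (adjusted p = 0.0213) and Wee1, the kinase that restrains CDK1, by 0.72 ± 0.17 on the log2 scale (adjusted p = 0.0436). Rnf8, a ubiquitin ligase at breaks, had 0.26 ± 0.26 across all 5 libraries (adjusted p = 0.618, edgeR).

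End joining without a template does not need a sister chromatid. The mean log2 level of 9 such genes found of 10 listed differed from the wild-type mean by -0.20, -0.16 and -0.47 in deleted 2, 4 and 6. Their median log2 fold change was -0.40 across all 5 libraries and -0.36 without deleted 6. In 6 of 9 (66.7%) all deleted libraries lay below both wild-type libraries, where 23.7% of all genes tested did. Without deleted 6 it was 7 of 9 (77.8%), where 29.8% did, and 1 lay above, where 28.7% did. edgeR called 0 of 9 in either fit. At an unadjusted p under 0.05 it had 0 across all 5 libraries, where 5.42% of all genes tested were lower and 9.44% higher. Without deleted 6 it had 3 lower and 1 higher at that threshold, where 12.6% and 16.0% of all genes were. Xrcc5, which encodes the KU80 subunit that binds DNA ends, had a log2 fold change of 0.68 ± 0.36, and Lig4, the ligase, 0.41 ± 0.39 (SE, adjusted p = 0.414 and 0.610). Poll, a gap-filling polymerase, had -0.67 ± 0.29 and Dclre1c, which encodes the Artemis nuclease, -0.53 ± 0.24 (adjusted p = 0.357 and 0.373). Xrcc6, which encodes the KU70 subunit and was chosen after its values were seen, had the lowest value of the 9 across all 5 libraries, at -0.82 ± 0.49 (SE, edgeR adjusted p = 0.458), and its level in deleted 6 was 34.9% of the mean of deleted 2 and 4. Whether the 33 genes differ from these lists was not tested.

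**Figure D3:**
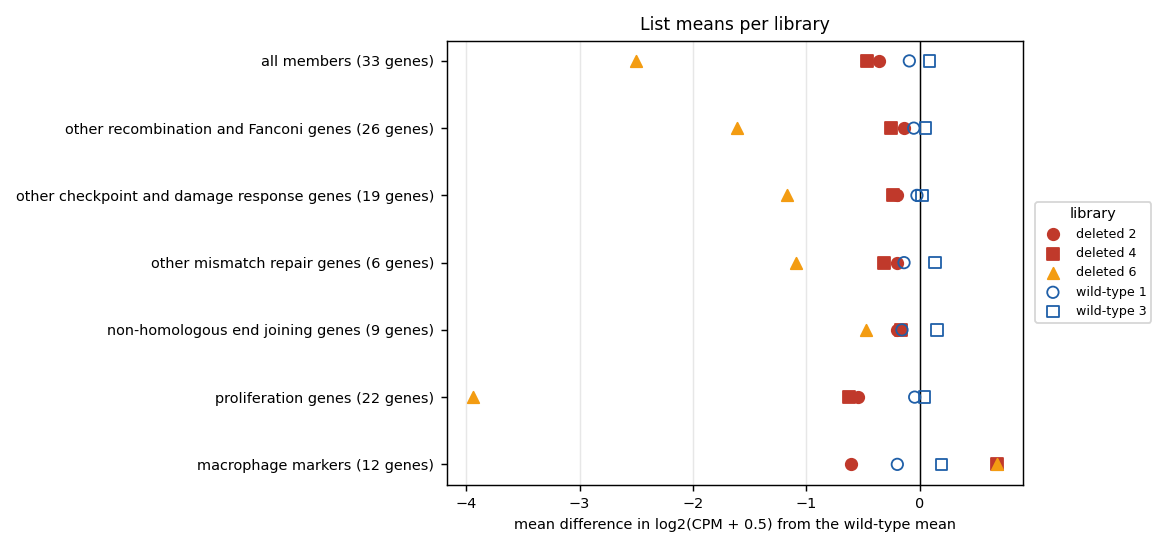
Mean difference from the wild-type mean in log2(CPM + 0.5) for the 33 genes (all members) and 6 other lists, in each library; filled marks are libraries labelled deleted and open marks libraries labelled wild-type. Deleted 6 lies at -2.50 for the 33 genes, at -3.94 for proliferation genes and at -0.47 for end joining genes.

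Between genes, levels can be compared only per length of transcript. Per kilobase of exon (basic GENCODE M21 transcripts merged), Tipin had the highest level in wild-type, at 93.1 CPM per kilobase, and its wild-type values did not overlap those of the next gene. Msh6 followed at 36.5 and Rad54l at 32.7 CPM per kilobase, and these overlapped. Bard1 was the lowest at 1.09 CPM per kilobase and Rad51c next at 1.80, without overlap between them. In deleted 6 the order differed. Nbn and Chek2 led at 19.3 and 16.98 CPM per kilobase, and Tipin stood at 9.30, behind Rad50 and Rbbp8.

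Promoter sequence gave a feature that the list of symbols did not use. RefSeq promoter windows (build GRCm38.p6, 250 bases before to 50 after the start) were matched by symbol for 25 of the 33 genes. Exo1, Fancd2, Nbn, Rad50, Rad54b, Rbbp8, Tipin and Xrcc2 had no window. All matched windows start within 174 bases of an annotated GENCODE transcript start of the gene. Those of Timeless and Fancc belong to inner starts, 6001 and 65533 bases inside the gene. The only window of Fancl starts 949 bases inside its gene. All 3 genes count here as windows without the E2F letters. Windows with the letters also start inside the gene, among them those of Fanci (409 bases), Chek1 (407), Fancg (205) and Bard1 (174) and a window of Rmi1 (349). So do windows without them of Rad51c (448) and Blm (121). The letters TTGGCGC or else TTCCCGC, which lie within the E2F consensus, were searched on both strands. They were found in 14 of 25 genes (56.0%), where 13.6% of the 10678 tested genes with a window and 7.79% of all 27025 genes with a window held them. Without Timeless and Fancc it was 14 of 23 (60.9%), a cut not made for the other genes. Other forms of the E2F consensus were not searched, so a window without these letters, such as that of Brip1, may still hold one. CCAAT, the letters of the NF-Y box, was found in 16 of 25 (64.0%), against 42.3% of tested genes. TTTGAA, the letters of the CHR element of mitotic genes, was found in 1 of 25 (4.00%), against 14.6% of tested genes. CCAAT read on the other strand can share the letters TTGG with the E2F letters, and a match is a description of the sequence, not a site.

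Windows of Fanci and Brca2 are shown because both genes were called without deleted 6, that of Bard1 for its low share in deleted 6, that of Rmi1 for its high share there, and that of Brip1 as a gene of low share without the letters. Capitals mark the E2F letters on either strand, and the windows run 5′ to 3′ along the gene.
Fanci (chr7:79392088-79392387, plus strand): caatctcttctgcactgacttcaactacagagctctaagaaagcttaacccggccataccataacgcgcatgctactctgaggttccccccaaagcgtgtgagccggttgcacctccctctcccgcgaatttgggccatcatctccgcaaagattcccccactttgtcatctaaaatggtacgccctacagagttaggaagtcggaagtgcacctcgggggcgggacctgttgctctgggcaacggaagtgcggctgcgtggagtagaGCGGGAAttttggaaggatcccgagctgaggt
Brca2 (chr5:150522371-150522670, plus strand): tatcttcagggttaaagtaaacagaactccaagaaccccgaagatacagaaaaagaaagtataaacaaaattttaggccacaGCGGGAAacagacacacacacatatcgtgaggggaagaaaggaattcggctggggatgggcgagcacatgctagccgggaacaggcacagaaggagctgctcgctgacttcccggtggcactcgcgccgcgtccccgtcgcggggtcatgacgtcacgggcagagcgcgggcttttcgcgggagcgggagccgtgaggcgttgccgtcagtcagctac
Bard1 (chr1:71102923-71103222, minus strand): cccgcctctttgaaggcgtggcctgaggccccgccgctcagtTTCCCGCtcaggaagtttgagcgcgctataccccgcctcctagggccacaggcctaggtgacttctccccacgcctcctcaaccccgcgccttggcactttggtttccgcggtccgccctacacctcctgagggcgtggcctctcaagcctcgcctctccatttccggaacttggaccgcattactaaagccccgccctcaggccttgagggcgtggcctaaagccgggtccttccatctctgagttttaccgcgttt
Rmi1 (chr13:58402347-58402646, plus strand): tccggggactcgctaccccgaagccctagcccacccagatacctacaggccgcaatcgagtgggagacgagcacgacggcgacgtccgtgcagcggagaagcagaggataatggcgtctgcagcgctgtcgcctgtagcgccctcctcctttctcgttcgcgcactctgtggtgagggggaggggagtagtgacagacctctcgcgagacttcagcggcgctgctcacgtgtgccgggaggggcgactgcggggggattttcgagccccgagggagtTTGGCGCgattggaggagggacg
Brip1 (chr11:86201144-86201443, minus strand): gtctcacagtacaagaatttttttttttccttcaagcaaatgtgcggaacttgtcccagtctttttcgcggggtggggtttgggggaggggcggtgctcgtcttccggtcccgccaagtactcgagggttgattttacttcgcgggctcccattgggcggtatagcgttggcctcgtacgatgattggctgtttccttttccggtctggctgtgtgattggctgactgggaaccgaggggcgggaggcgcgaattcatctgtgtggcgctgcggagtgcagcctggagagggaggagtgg

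The letters begin at position 18 from the start in Fanci, -168 in Brca2, -208 in Bard1 and 27 in Rmi1, counted with the start as 0. The other window of Rmi1 has none. Genes with and without the letters had overlapping ranges in deleted 6. With them, the share of the mean of deleted 2 and 4 ran from 2.54% to 89.0% (median 20.96%, 14 genes), and without them from 5.33% to 92.0% (median 25.95%, 11 genes). Bard1, Fancb, Brca1, Fanci, Chek1 and Rad51c held the letters and lay under 10%, while Rmi1, Chek2, Fancg and Atm held them and lay over 50%. Of the 11 genes without the letters 4 lay under 10% and 4 over 50%.

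**Figure D4:**
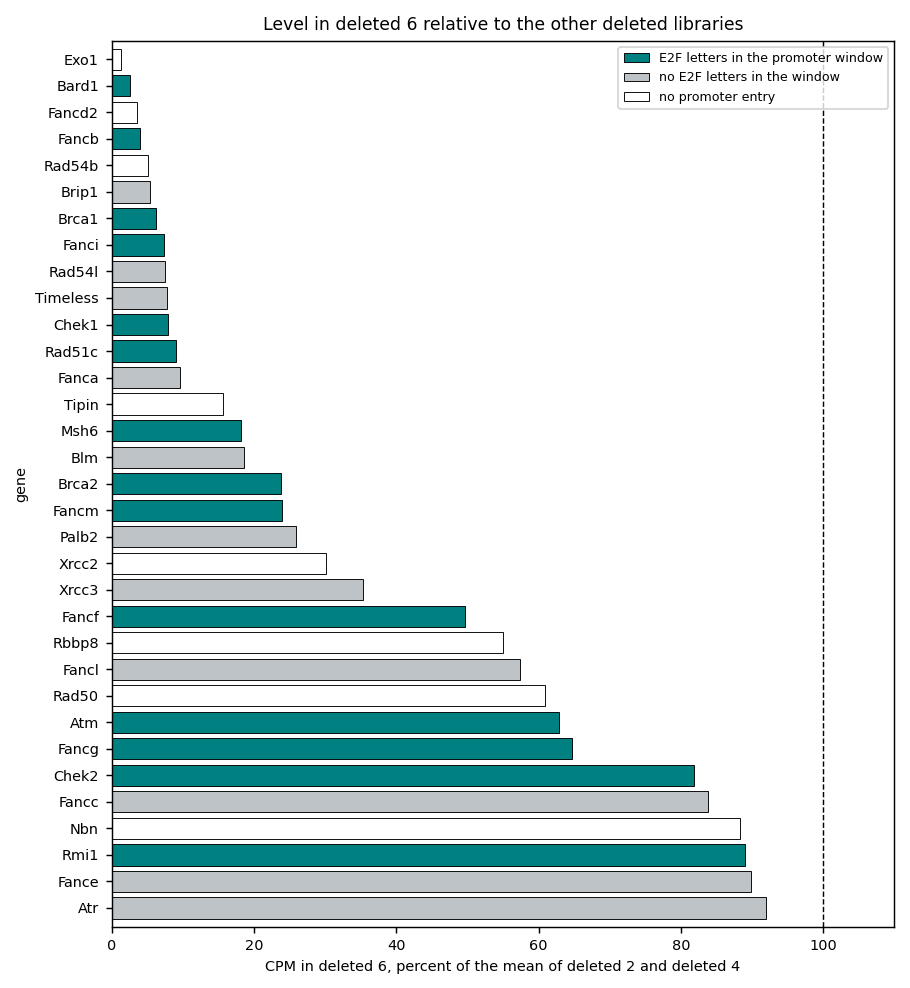
CPM of each of the 33 genes in deleted 6 as a percent of the mean of deleted 2 and deleted 4, coloured by the E2F letters in the promoter window. Bars run from 1.25% for Exo1 to 92.0% for Atr, and genes with the letters lie at both ends.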

How the data were processed

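Libraries were made with SMART-Seq v4 and Nextera XT kits, which do not mark strand, and read as 50 bp single ends, per the labels' protocols and the design text. The submitters' processing notes name mm10, STAR, bcl2fastq 1.8.4 and DESeq2 1.12.4. How genes were annotated and counted was not given in the sources used here. For each library the authors deposited read counts of 46603 genes. They also deposited normalized signal, which equals those counts over 1 size factor per library, and log2-scale values, not used in tests; both cover 27526 genes. The 5 rows that name no gene (unassigned reads) stayed out; reads aligned to several places were 13.0% to 15.1% of all reads, ambiguous reads 2.36% to 2.78%, reads without a feature 5.89% to 8.09% and unaligned reads 2.48% to 4.13%. A count of 3 is 0.0526 to 0.0723 CPM on the scaled library sizes, for counting error only.

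Counts were filtered with filterByExpr, scaled with TMM and tested with edgeR 4.0.16's quasi-likelihood test (R 4.3.3) on genotype, with Benjamini-Hochberg adjustment over all genes; an adjusted p under 0.05 was a call. DESeq2 1.42.0 and limma 3.58.1 (voom) were alternatives, as were other filters, scalings and left-out libraries. The standard error is the log2 fold change over the square root of F. Tested on simulated counts, both fits, with and without deleted 6, made too many false calls for the threshold. Those counts gave every library of a gene the same spread, so a library that stands apart as deleted 6 does was not modelled. With 3 and 2 libraries no exact permutation test can go below 0.1 two-sided, and none was run. No pair of libraries was alike within sampling noise (lowest chi-square 50.2 per gene).

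The 33 genes and all lists were chosen with earlier results of these data known. Full values are given for genes called in either fit, the 8 largest log2 fold changes across all 5 libraries and the highest gene of each role; from other lists, up to 2 genes each way with the smallest p, of which 1 is not reported here. Fancg, Chek1, Rmi1, Fancb, Fancm, Fancc, Hells and Mki67 were added after their values were seen. GENCODE M21 (GRCm38, the build of mm10) gave coordinates. All p-values compare labels, not checked genotypes.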

Additional observations from a re-analysis of the deposited data

How the results depend on the processing

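No paired analysis was possible because the groups share no replicate number. Across all 5 libraries the number of genes called was 0 in edgeR with TMM, 278 with no filter on low counts, 1234 in DESeq2, 2177 in limma-voom and 342 in lane 4 alone, and 0 to 2045 with single libraries left out. Of the 33 genes 0 were called, 1 in limma-voom and 0 to 3 with single libraries left out. Their median log2 fold change of -0.89 stayed negative under each alternative tried and ran from -1.28 without deleted 2 to -0.49 without deleted 6. The 27 genes lower in every deleted library became 27 with the authors' size factors, 28 with plain library totals, and 27 to 29 with single libraries left out or within lane 4, an alternative chosen after seeing the data. The share of all genes was 23.7% with TMM and with the authors' size factors, 30.8% with plain totals, 27.2% to 32.5% with single libraries left out and 40.4% within lane 4.

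Without deleted 6, 2045 genes were called, 3584 with no filter, and 257 to 2634 with a further library left out. Of the 33 genes 3 were called in edgeR, 11 in DESeq2, 13 with no filter, 7 with the stricter filter, and 0 to 10 with a further library left out. Their median was -0.49, and -0.55 to -0.38 with a further library left out. Fanci kept its call without deleted 2 or deleted 4, Tipin without deleted 2, and Brca2 in neither. The cause of these moves was not tested.

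Values near 0 changed sign. Across all 5 libraries, leaving out single libraries moved Chek2 between -0.0255 and 0.13, Rad50 between -0.3677 and 0.0706, and Fancc between -0.3418 and 0.274. Chek2 was at -0.0041 without deleted 4, Rad50 at 0.0634 and Fancc at 0.0265 without deleted 6, and Fancc at 0.3672 in lane 4. Without deleted 6, leaving out a further library moved Atr between -0.5236 and 0.0195, Rad50 between -0.1402 and 0.2763, Rbbp8 between -0.3071 and 0.1072, and Fancc between -0.2573 and 0.3672. No other value of the 33 genes changed sign.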
